A study of Mus musculus with 9 samples.

Results

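The comparison described here is the knockdown of Yap1 in differentiated mouse embryonic stem (ES) cells against the differentiated control, with 1 library in each group. Rows without a name and symbols that a spreadsheet had turned into dates were set aside. So were small RNA genes recognised by the start of their symbol (Mir, Snor, Rnu or Scarna). Any small RNA gene under another symbol was kept. The comparison covers the genes that stood at 1 FPKM or more in either of these 2 libraries. That gave 11751 of the 18504 named genes in the table. FPKM is the number of sequenced fragments per kilobase of transcript, scaled to the mapped fragments of a library, so levels of different genes can be set beside each other per length. All 9 libraries of the series were made from polyadenylated RNA of J1, an ES line derived from the mouse strain 129S4/SvJae, at passage 5 to 7. Beside the differentiated pair, the values below come from an undifferentiated knockdown library with its own control and from an undifferentiated Yap1 overexpression library with its control BirA. The undifferentiated ES cell control of the Yap1 knockout samples is used for a few values near the end. The knockout libraries themselves entered only the choice of genes to name. The agent that lowered Yap1, the way in which the cells were differentiated and the time they were given are details not given in the sources used here. What the number 1 in the knockdown label stands for is not stated either.

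Yap1 encodes a transcriptional coactivator without a DNA-binding domain of its own. When the kinases of the Hippo pathway (Stk3 and Stk4, then Lats1 and Lats2) are active, the protein is phosphorylated and held in the cytoplasm, and when they are inactive it enters the nucleus and works mostly through the TEAD factors on genes of the cytoskeleton, the matrix, cell adhesion and growth. In the early embryo Yap1 and TEAD4 are known for their part in the outer cells that become trophectoderm, and the same coactivator responds to cell shape and tension.

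The targeted RNA was looked at first. Before differentiation Yap1 stood at 37.4 FPKM in the control library and 4.55 in the knockdown library, and after it at 78.0 and 12.5. The knockdown library therefore held 16.0% of the control level in differentiated cells and 12.2% in undifferentiated cells, as both labels say. What remained of Yap1 RNA after differentiation was higher than what remained before it. Wwtr1, the paralog also called TAZ, was at 9.18, 9.29, 27.2 and 12.8 FPKM in the same order of libraries, so it was level in the undifferentiated pair and just past 2-fold lower in the differentiated pair (log2 ratio -1.02, or -0.98 with the libraries scaled by their upper quartile). This order (undifferentiated control, undifferentiated knockdown, differentiated control, differentiated knockdown) is used wherever 4 values follow a gene below.

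Ratios are on the scale log2(FPKM + 1), knockdown over control, which understates the difference of low genes. A gene is called lower or higher here when it was at least 2-fold apart on that scale. With 1 library per group there is no replicate error, no test and no p-value, and a difference between the libraries may be one between cultures as well as one made by the knockdown. Since RNA was taken from whole cultures, fewer cells of a type and less RNA per cell cannot be told apart. The depth, estimated from the steps between low values, was about 19.2 M (mega) fragments for the differentiated control and 13.1 M for the differentiated knockdown, so for a transcript of 2 kb each FPKM rested on about 38.3 and 26.1 fragments. Between the differentiated libraries the log2 ratio had a Spearman correlation of -0.10 with GC content and of -0.07 with transcript length across genes. The trends were larger in the pairs used for comparison. They were 0.15 with GC content and -0.22 with length in the undifferentiated knockdown pair, and -0.21 and 0.23 in the overexpression pair. The summed FPKM of all genes was 452065 and 460320.

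Knockdown in differentiated cells went with lower values more often than with higher ones. Of 11751 genes 529 were at least 2-fold lower (4.5%) and 181 at least 2-fold higher (1.54%), so 74.5% of the genes past this size were lower. At least 4-fold lower were 80 genes and at least 4-fold higher 7, a larger share on the lower side than at 2-fold. At 8-fold the counts were 10 and 2, too few to show a trend with size. These last counts include Tpm3, Rnaset2b and AF357399, whose entries are uncertain, as described below. The median log2 ratio over all genes was -0.01, with quartiles of -0.25 and 0.19. Many of the lower genes were abundant, since 406 of the 529 stood at 5 FPKM or more in the control and 56 at 100 FPKM or more. Of the 181 higher genes 125 reached 5 FPKM in the knockdown library and 11 reached 100 FPKM. The same 2-fold rule in undifferentiated cells gave 29 lower (0.247%) and 24 higher (0.204%) of 11755 genes. Counts per gene list below are to be read beside these shares of all genes, 4.5% lower and 1.54% higher in the differentiated pair. A single called gene in a short list is close to such a share and says little of the list.

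**Figure D1:**
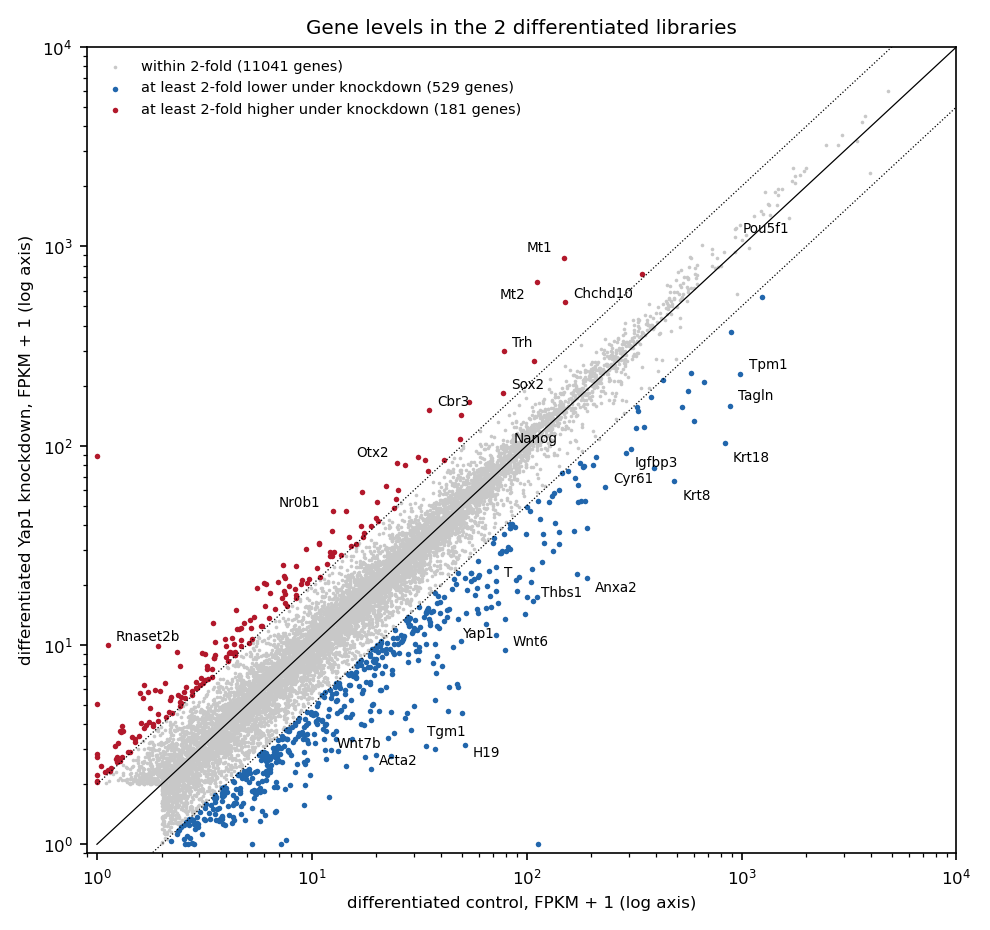
Level of each of the 11751 genes in the differentiated control (x axis) and the differentiated Yap1 knockdown (y axis), as FPKM + 1 on log axes. Grey points lie within 2-fold, blue points are the 529 genes at least 2-fold lower and red points the 181 at least 2-fold higher, the dotted lines mark 2-fold, and the point at the left edge near 90 is Tpm3, which is listed at 0 in the control.

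A few entries at 0 need care. Among the 181 higher genes 6 are listed at 0 in the control, and among the 529 lower genes 5 are listed at 0 in the knockdown. One of the 6 is Tpm3, a tropomyosin gene at 87.4 FPKM in the knockdown and between 51.2 and 62.9 FPKM in the undifferentiated pair. Serbp1, an mRNA-binding protein gene, is listed at 0 in both differentiated libraries. AF357399, whose symbol the rule for small RNA genes does not cover, is listed at 112 FPKM in the control and at 0 in the knockdown. For such genes only the listed values are given and no fold.

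The regulators of Yap1 were examined first, from the kinases outward. The core kinases and their scaffolds lay close to the control. The values were 25.7 and 24.95 FPKM (control, then knockdown) for Stk4, 4.96 and 3.77 for Stk3, 4.54 and 4.90 for Lats1 and 18.5 and 13.9 for Sav1, the adaptor that joins the kinases. Nf2, the membrane-linked activator of the pathway, was at 62.1 and 84.7 FPKM. Lats2 stood apart from Lats1. It was at 0.808, 0.365, 7.54 and 1.53 FPKM in the 4 libraries, with a log2 ratio of -1.75 in the differentiated pair. Lats2 is itself a known target of YAP.

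Proteins that bind YAP at cell junctions were among the lower genes. Amotl2, an angiomotin that holds YAP at junctions, was at 7.78, 3.12, 179 and 51.7 FPKM, a log2 ratio of -1.77. Amot was at 32.4 and 10.3 FPKM in the differentiated pair, and Amotl1 at 16.0 and 6.92. Of the 3 angiomotins Amotl2 alone also passed 2-fold in undifferentiated cells (-1.09). Ptpn14, a phosphatase that keeps YAP out of the nucleus, was at 3.79, 2.11, 37.2 and 11.5 FPKM. Wwc2, a relative of the scaffold KIBRA, was at 13.0, 5.99, 40.2 and 12.2 FPKM, and the FERM protein Frmd6 at 6.63 and 2.38 FPKM in the differentiated pair. These regulators, Lats2 included, had levels in the differentiated control above those of both undifferentiated libraries.

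The DNA-binding partners did not move as a block. Tead1 was at 25.6 and 14.2 FPKM in the differentiated pair, and Tead4 at 10.1 and 5.29, both within 2-fold. Tead3 was at 0.957, 1.08, 27.1 and 7.25 FPKM, a log2 ratio of -1.77. Tead2, the most abundant of the 4 factors in all 4 libraries, was on the other side at 64.4, 74.2, 109 and 161 FPKM, a log2 ratio of 0.56. The vestigial-like cofactors, which compete with YAP for TEAD, were lower. Vgll3 was at 16.7 and 1.76 FPKM in the differentiated pair (-2.68), and Vgll4 at 18.4 and 6.04 (-1.46). In all, 12 of 32 measured Hippo pathway genes were lower, 0 were higher and the median log2 ratio was -0.79, Yap1 and Wwtr1 being among the 12. In undifferentiated cells 3 of 29 were lower and 0 higher, with a median of -0.10.

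Known YAP/TEAD target genes were lower in the knockdown, with exceptions. Of 19 measured members 11 were lower and 0 higher, and 17 lay below 0, with a median log2 ratio of -1.10 against -0.01 over all genes. Lats2, Amotl2 and Ptpn14 are also in the Hippo pathway list, so the counts of the lists are not separate. With a pseudocount of 5 FPKM, which leaves out most differences among low genes, 5 of the 19 were lower. In undifferentiated cells 2 of 15 were lower, 0 higher and the median was -0.12. The summed level of the list was 116, 112, 945 and 371 FPKM in the 4 libraries. Cyr61, a secreted matricellular protein, was at 3.38, 0.999, 231 and 61.1 FPKM, a 3.78-fold lower level in the differentiated knockdown. Igfbp3, a carrier of insulin-like growth factors, was at 5.08, 3.23, 289 and 91.3 FPKM. Ankrd1, a muscle ankyrin-repeat protein and a standard YAP readout, was listed at 0 in both undifferentiated libraries and stood at 3.31 and 0.366 FPKM in the differentiated pair. These target RNAs remained higher in the differentiated knockdown than in either undifferentiated library.

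Among the other targets, Axl, a receptor tyrosine kinase, was at 6.47 and 0.885 FPKM in the differentiated pair (-1.99), and Tgfb2, a secreted TGF-beta ligand, at 7.34 and 1.31 (-1.85). F3, tissue factor, was at 10.6 and 2.69 FPKM, and Nt5e, the ectonucleotidase CD73, at 9.61 and 3.95. Ctgf did not follow them, although it is as widely used a readout as Cyr61. It was at 2.73, 1.11, 47.4 and 42.1 FPKM, with log2 ratios of -0.17 in differentiated and -0.82 in undifferentiated cells. Gadd45a (63.3 and 60.6 FPKM), Asap1 (9.76 and 9.99) and Fjx1 (11.6 and 14.6) also lay close to the control.

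Promoter sequence was available from RefSeq (mouse build GRCm38.p6) for many of these genes, and 3 targets are shown because their upstream windows hold the letters that TEAD factors are known to bind. Each line is the 250 bases before the transcript start, 5′ to 3′ on the gene's strand, with GGAATG or its reverse complement CATTCC in capitals. The window of Cyr61 is chr3:145649986-145650235 (minus strand), that of Amotl2 chr9:102717554-102717803 (plus strand) and that of Ankrd1 chr19:36119845-36120094 (minus strand).
Cyr61: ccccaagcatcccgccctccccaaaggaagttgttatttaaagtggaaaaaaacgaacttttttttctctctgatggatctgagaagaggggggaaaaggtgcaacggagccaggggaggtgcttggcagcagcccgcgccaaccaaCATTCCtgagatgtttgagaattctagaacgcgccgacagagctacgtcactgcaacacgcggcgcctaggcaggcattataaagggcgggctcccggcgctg
Amotl2: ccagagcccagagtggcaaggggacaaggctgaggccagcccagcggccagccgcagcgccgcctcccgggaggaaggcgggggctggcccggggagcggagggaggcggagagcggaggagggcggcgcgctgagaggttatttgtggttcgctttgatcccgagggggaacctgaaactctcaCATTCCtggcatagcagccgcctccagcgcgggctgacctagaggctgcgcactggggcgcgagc
Ankrd1: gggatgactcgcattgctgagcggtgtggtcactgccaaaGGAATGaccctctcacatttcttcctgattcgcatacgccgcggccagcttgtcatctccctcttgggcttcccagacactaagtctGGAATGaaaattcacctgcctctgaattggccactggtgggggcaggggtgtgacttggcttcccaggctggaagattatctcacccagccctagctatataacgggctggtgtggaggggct
The hexamer occurs 1 time each upstream of Cyr61 and Amotl2 and 2 times upstream of Ankrd1. Over the genes called lower, 402 of 529 matched the promoter table, and 105 of their 566 promoters (18.6%) hold the hexamer on either strand. For the higher genes (137 of 181 matched) it was 20 of 188 promoters (10.6%), for all genes compared (9410 of 11751 matched) 1308 of 12072 (10.8%), and for every promoter on file 4153 of 32851 (12.6%). Of the YAP/TEAD target list 13 of 19 matched, and 6 of their 14 promoters hold it. These shares describe letters in a short window. They show no binding, and YAP is known to act largely from distant enhancers that the window does not cover.

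Genes of the actin cytoskeleton, many of them targets of the serum response factor SRF, were lower nearly throughout. Of 29 measured genes 18 were lower and 0 higher, 28 lay below 0, and the median log2 ratio was -1.24. Muscle-type members had the lowest ratios, and their levels before differentiation were low. Acta2, smooth muscle actin, was at 0.0354, 0, 17.8 and 1.39 FPKM (-2.98), Acta1, skeletal actin, at 0.0658, 0, 97.7 and 13.4 (-2.78), and Tagln, the actin-binding protein SM22, at 2.31, 1.43, 881 and 156 (-2.49). Tpm1, a tropomyosin that coats actin filaments, was at 47.3, 50.7, 985 and 229 FPKM. The ratios did not divide the list into muscle-type and general members. Cardiac actin, Actc1, was at 4.48 and 2.89 FPKM in the differentiated pair (-0.49), while the widely used actin-binding genes Csrp1 (352 and 123, -1.51), Cnn2 (321 and 121, -1.40) and Actn1 (210 and 87.2, -1.26) were lower. The non-muscle myosin Myh9 was at 324 and 155 FPKM (-1.06), the filamin Flna at 259 and 134 (-0.95), vinculin (Vcl) at 84.1 and 43.6 (-0.93) and Actb, cytoplasmic actin, at 3970 and 2333 (-0.77). Srf itself was at 52.3 and 37.8 FPKM (-0.46). Ezr, which links actin to the membrane of epithelial cells, was the single member above 0, at 124 and 151 FPKM. The actin genes have closely similar coding sequences, so reads shared between them may have been assigned to another member.

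The upstream windows of the 2 muscle-type actins are shown because they differ in the exact motif matches they hold. Capitals mark the TEAD hexamer and, in Acta1, also the CArG box, the element known to bind SRF. The windows are chr8:123894776-123895025 (minus strand) for Acta1 and chr19:34255374-34255623 (minus strand) for Acta2.
Acta1: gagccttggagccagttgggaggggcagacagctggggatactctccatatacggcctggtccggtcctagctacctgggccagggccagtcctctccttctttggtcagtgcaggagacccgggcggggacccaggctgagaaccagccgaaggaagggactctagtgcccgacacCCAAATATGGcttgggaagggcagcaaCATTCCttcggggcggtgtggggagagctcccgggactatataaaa
Acta2: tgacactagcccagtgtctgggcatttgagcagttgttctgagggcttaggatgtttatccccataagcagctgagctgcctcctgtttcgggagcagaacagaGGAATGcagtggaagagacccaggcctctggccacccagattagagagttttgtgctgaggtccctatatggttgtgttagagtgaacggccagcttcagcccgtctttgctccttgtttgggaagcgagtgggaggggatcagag
A CArG box was counted here only as an exact match, CC and GG with nothing but A or T between them. Acta1 holds 1 such box and 1 TEAD hexamer, and Acta2 holds the hexamer with no exact CArG match in this window. The Acta2 window does hold ccctatatgg and ccttgtttgg, each 1 letter away from an exact match, so it cannot be said to lack CArG-like elements. Bases outside the window were not searched. Over the actin and SRF list (26 of 29 matched) 9 of 31 promoters hold a CArG box and 10 of 31 the hexamer. A CArG box occurs in 12 promoters of the lower genes (2.12%), in 2 of the higher genes (1.06%) and in 142 of all genes compared (1.18%).

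Integrin, focal adhesion and matrix genes were lower in part. Of 23 integrin and focal adhesion genes 8 were lower (5 with a pseudocount of 5 FPKM) and 0 higher, with a median of -0.71. Itga3, a laminin-binding integrin chain, was at 14.0, 8.81, 104 and 19.6 FPKM (-2.35), and Itga5, the fibronectin receptor chain, at 57.7 and 18.3 in the differentiated pair (-1.61). Itgb1, the common partner chain, lay within 2-fold at 96.2 and 55.1 FPKM, and Itga6 was at 25.5 FPKM in both. Of 28 matrix genes 15 were lower (8 with a pseudocount of 5 FPKM), 0 higher and the median was -1.01. Thbs1, a matricellular glycoprotein and YAP target, was at 0.0449, 0.0279, 106 and 15.6 FPKM (-2.69). The laminin chain Lamb3 (8.32 and 0.991 FPKM) and the collagen chaperone Serpinh1 (118 and 34.9) were lower too. The laminin-111 chains made by early embryonic cells behaved otherwise, with Lamc1 at 59.2 and 47.0 FPKM and Lama1 at 0.955 and 2.004. Fibronectin (Fn1) was at 140 and 128 FPKM.

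Keratins and other genes of surface epithelia had the lowest median of all 38 lists, -2.34. Of 15 measured genes 12 were lower and 0 higher. The simple epithelial keratins pair with each other in filaments, and all 4 were lower. Krt8 was at 5.98, 4.98, 486 and 65.3 FPKM, Krt18 at 18.7, 12.2, 832 and 102, Krt7 at 3.98, 3.996, 33.1 and 2.12, and Krt19 at 10.3, 9.27, 170 and 21.8. Krt8 was thus 7.45-fold and Krt18 8.16-fold lower in the knockdown, and Krt7 alone ended below its undifferentiated level. Tgm1, the enzyme that crosslinks the cornified envelope of skin, was at 16.1, 7.63, 36.4 and 2.02 FPKM (-3.63). Sfn, the epithelial 14-3-3 protein, was at 19.96, 18.0, 390 and 76.0 FPKM, and the phospholipid-binding annexin Anxa1 at 28.0 and 2.76 in the differentiated pair. The summed level of the list was 123, 114, 2169.8 and 329 FPKM.

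Cell junctions showed which epithelial genes stood apart from the keratins. Of 23 junction and polarity genes 8 were lower (5 with a pseudocount of 5 FPKM) and 0 higher, with a median of -0.77. Desmosome parts, which anchor keratin filaments, were among the lower genes, with Dsp at 2.48, 2.46, 30.5 and 8.35 FPKM and Dsc2 at 5.91 and 0.948 in the differentiated pair. The tight junction claudin Cldn4 was at 173 and 62.4 FPKM. The classical epithelial adhesion molecules lay within 2-fold, with Cdh1 (E-cadherin) at 108, 108, 256 and 176 FPKM and Epcam at 73.0, 65.9, 109 and 108. Of 12 regulators of the epithelial-mesenchymal transition 0 were lower and 0 higher, and the median was -0.38. The intermediate filament Vim was at 102 and 63.2 FPKM and the transcription factor Snai1 at 8.36 and 5.38.

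The trophoblast list overlapped with the keratins. Of 17 measured genes 9 were lower and 1 higher (2 with upper quartile scaling), with a median of -1.08 and a summed level of 201, 209, 1699.7 and 358 FPKM. Krt7, Krt8, Krt18 and Krt19 are 4 of the 9. Among the transcription factors, Gata3 was at 0.0139, 0.0173, 11.3 and 1.97 FPKM (-2.06) and Tfap2a at 18.7 and 7.23 in the differentiated pair. Hand1, used in trophoblast giant cells and in mesoderm, was at 27.1 and 7.97 FPKM. Cdx2, the factor that sets up trophectoderm, was at 6.87 and 3.97 FPKM, within 2-fold, and Elf5, which marks trophoblast stem cells, stayed below 0.1 FPKM in all 4 libraries. Tfap2c (8.87 and 18.4 FPKM) and Esrrb (30.3 and 86.9), 2 members that ES cells also express, were on the higher side. Keratins and Gata3 were thus present without the stem cell marker Elf5.

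**Figure D2:**
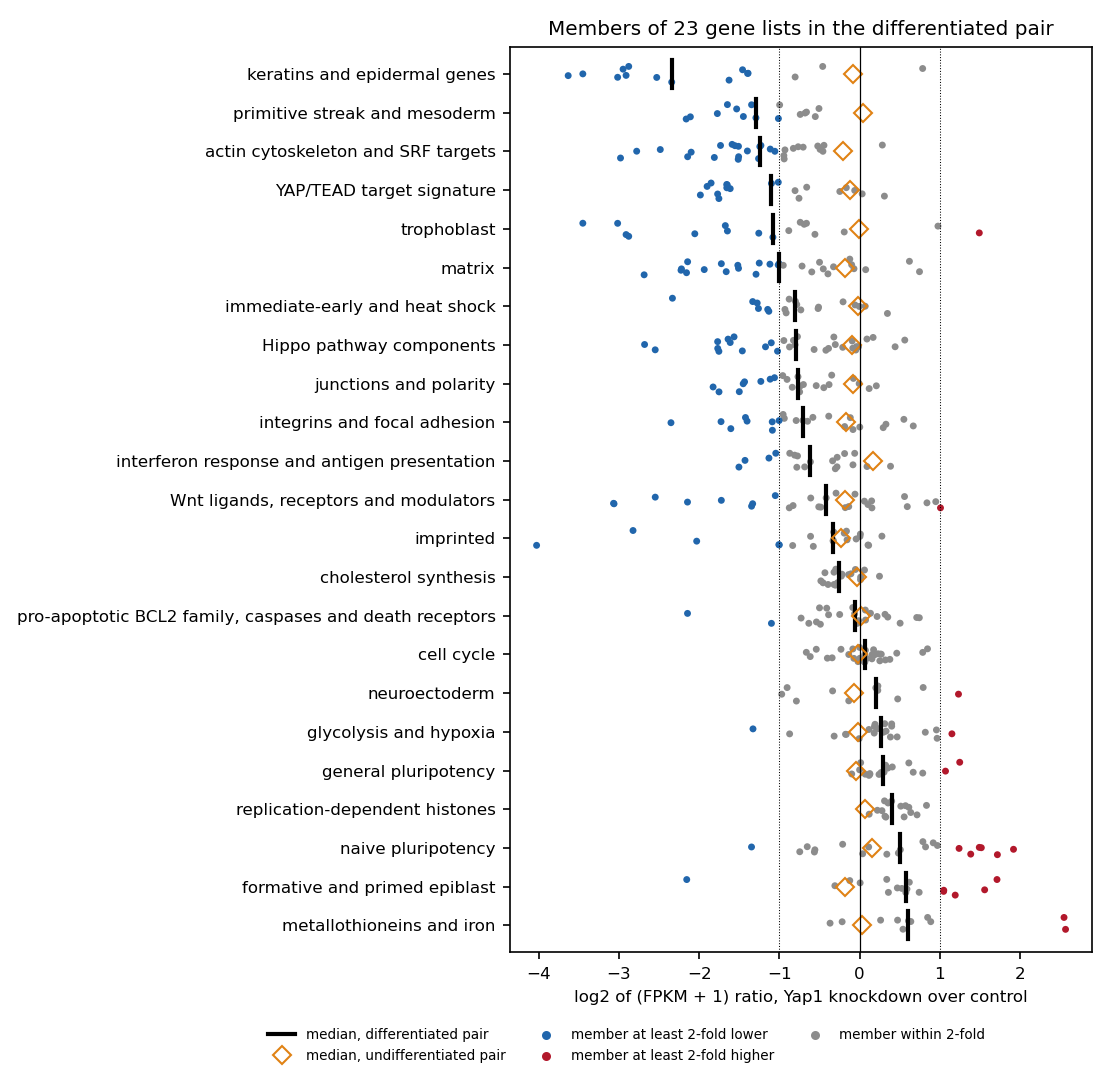
Log2 ratio of (FPKM + 1), knockdown over control in differentiated cells (x axis), for the measured members of 23 gene lists. Each point is 1 gene, blue where at least 2-fold lower, red where at least 2-fold higher and grey within 2-fold, the black bar is the list's median and the open diamond its median in the undifferentiated pair. Medians run from -2.34 for keratins and epidermal genes to 0.61 for metallothioneins and iron genes, while the diamonds stay near 0.

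Markers of the primitive streak and of early mesoderm, the first cells to leave the epiblast at gastrulation, were low before differentiation and lower in the knockdown after it. All 15 measured genes lay below 0, 9 were at least 2-fold lower (5 with a pseudocount of 5 FPKM) and the median was -1.29. The summed level was 14.1, 14.7, 245 and 87.8 FPKM. T (Brachyury), the factor of the streak and notochord, was at 0.0911, 0.141, 70.7 and 19.96 FPKM. Mixl1, a mesendoderm homeobox gene, was at 0.282, 0.175, 12.2 and 1.95 FPKM, and Mesp1, the factor of earliest cardiac mesoderm, at 0.241, 0.598, 5.09 and 0.410. Fgf8, a growth factor that streak cells need to migrate, was at 1.58, 2.14, 34.5 and 12.0 FPKM. Eomes, which acts upstream in the streak, was at 21.96 and 12.7 FPKM in the differentiated pair, within 2-fold. Kdr, the receptor of later vascular mesoderm, remained below 1 FPKM in all 4 libraries.

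Signals that induce the streak were split. Of 27 Wnt ligands, receptors and modulators 8 were lower and 1 higher, and 7 of the 8 are ligands. With a pseudocount of 5 FPKM 5 were lower and 0 higher. Wnt3, the ligand that starts the streak, was at 0.0720, 0.0536, 28.7 and 10.7 FPKM. The ligands known from surface epithelia had larger ratios. Wnt6 was at 0.990, 0.866, 78.0 and 8.46 FPKM (-3.06), Wnt7b at 1.30, 0.574, 22.3 and 1.77 (-3.07) and Wnt10a at 8.18 and 0.569 in the differentiated pair (-2.55). Wnt8a (6.97 and 6.25 FPKM) and the receptor chain Lrp6 (12.4 and 12.9) lay close to the control. Fzd7, a receptor that ES cells use, was at 48.5 and 94.5 FPKM, and Sfrp2, a secreted Wnt antagonist, was the 1 higher gene at 15.0 and 31.2, a log2 ratio of 1.01 that also fell short of 2-fold with median ratio scaling. Among 17 Wnt target genes 5 were lower and 1 higher (2 and 0 with a pseudocount of 5 FPKM). Sp5 was at 0.266, 0.440, 71.0 and 17.7 FPKM, whereas the general feedback target Axin2 was at 26.1 and 16.9 in the differentiated pair and Lef1 at 16.1 and 24.5.

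Nodal, BMP and FGF pathway genes had medians near that of all genes. Of 24 Nodal and BMP genes 4 were lower (16.7%, against 4.5% of all genes) and 2 higher (8.33%, against 1.54%), with a median of -0.14. With a pseudocount of 5 FPKM 1 was lower and 0 were higher. Nodal itself was at 40.7 and 40.9 FPKM, the BMP targets Id1 and Id3 at 221 and 205 and at 183 and 161, while Id2 was at 9.17, 3.71, 82.7 and 37.6 in the 4 libraries. Lefty2, the secreted Nodal inhibitor, was at 14.3 and 30.5 FPKM, past 2-fold at 1.05 but at 0.88 with that pseudocount. Of 19 FGF and ERK feedback genes 1 was lower (Fgf8, 5.26%, near the share of all genes) and 2 were higher (Fgf4 and Fgf15, 10.5%). The median was -0.08. With a pseudocount of 5 FPKM 1 was higher, and with 0.1 FPKM 3 were lower.

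Defining factors of endoderm and neuroectoderm were near 0, although other members of these lists were measured. Of 15 definitive endoderm genes 5 passed the filter, and Foxa2 and Sox17, the defining factors, were below 0.4 FPKM in all 4 libraries. Of 12 primitive and visceral endoderm genes 5 were lower, and 3 of them are matrix genes (Sparc, Col4a1 and Col4a2). The other two were Cited1, a transcriptional cofactor at 1.03, 0.734, 48.7 and 9.44 FPKM (-2.25), and Dab2, an endocytic adaptor at 5.90 and 1.77 in the differentiated pair (-1.32). Gata6 stayed below 1 FPKM and Afp was listed at 0 in all 4 libraries. Of 11 neuroectoderm genes 0 were lower and 1 was higher, with a median of 0.20, and Sox1 and Pax6 stayed below 1 FPKM. Vax2, a homeobox gene of the developing eye, was the higher one, at 1.84, 7.15, 0.0474 and 1.46 FPKM. Nes, an intermediate filament of neural progenitors, was at 50.1 and 28.6 FPKM.

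Markers of feeder fibroblasts, of endothelium and blood, and of heart and striated muscle were at or near 0 in part. Of the 11 feeder fibroblast markers listed, 5 passed 1 FPKM, of which 2 were lower (0 with a pseudocount of 5 FPKM) and 1, Thy1, was higher. The summed level of the 11 was 26.3, 28.6, 14.9 and 10.4 FPKM, of which Thy1, which ES cells express, made 22.3, 26.0, 3.404 and 8.21. Col1a1 was at 5.73 and 0.444 FPKM in the differentiated pair, Col1a2 at 0.660 and 0.289, and Dcn, Lum, Postn and Col3a1 were each below 0.3 FPKM in both. Of 11 endothelial and blood markers listed, 4 passed, of which 3 lay above 0 and 1 was higher, and the summed level was 39.7, 42.5, 10.9 and 20.6 FPKM. The higher one was Pecam1, which naive ES cells also express, at 5.02 and 14.7 in the differentiated pair, whereas Cdh5 was below 0.1 FPKM and Ptprc was listed at 0 in all 4 libraries. Of 15 cardiac and striated muscle genes 6 passed, 2 were higher (0 with a pseudocount of 5 FPKM) and 0 lower, and the summed level was 46.3, 55.1, 21.0 and 25.4 FPKM. Tnnt2 was listed at 0 in both differentiated libraries, Myh6 stood at 1.41 and 0.871 FPKM, and Myl7 was at 17.3, 25.03, 3.82 and 11.9 in the 4 libraries.

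Pluripotency genes were on the higher side of the knockdown, most of them modestly. Of 18 general pluripotency genes 16 lay above 0 and 2 were at least 2-fold higher, with a median log2 ratio of 0.29. Pou5f1 (Oct4), the central factor of the network, was at 1138, 1261, 927 and 1115 FPKM, and Nanog at 266, 318, 78.4 and 97.0. Both lay well within 2-fold, so their values give no sizeable difference between the differentiated libraries. Sox2, the partner of Oct4, was at 317, 325, 76.3 and 182 FPKM and thus 2.39-fold higher in the knockdown. Utf1, a chromatin factor of ES cells, was at 343 and 722 FPKM in the differentiated pair.

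Naive pluripotency genes fell into members on either side. Of 21 genes 6 were higher (28.6%, against 1.54% of all genes) and 1 lower (4.76%, against 4.5%), with a median of 0.51. The higher ones were Nr0b1 (38.8, 36.6, 11.5 and 46.2 FPKM), Fgf4 (81.5, 102, 13.4 and 46.2), Klf2 (149, 218, 48.6 and 141), Esrrb (113, 122, 30.3 and 86.9), Pecam1 (32.1, 35.1, 5.02 and 14.7) and Prdm14 (9.97, 14.3, 1.39 and 4.63). In each of these the differentiated control was below both undifferentiated libraries. Nr0b1, an orphan nuclear receptor that binds Oct4, was the 1 member of the 6 with a level in the differentiated knockdown above the undifferentiated control. On the other side of 0 were 6 genes, against 15 above it. Some of those below 0 are tied to LIF signalling, but so are members above 0 such as Lifr. Socs3, the feedback inhibitor of that pathway, was at 36.9, 33.4, 5.87 and 1.70 FPKM and was the 1 lower gene, Stat3 was at 13.3 and 8.11 in the differentiated pair, Klf4 at 9.10 and 5.83, Tbx3 at 27.0 and 15.7 and Klf5 at 141 and 95.4. The LIF receptor chains lay close to the control, with Lifr at 3.60 and 4.82 FPKM and Il6st at 21.98 and 18.8.

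Genes of the formative and primed epiblast, the state that ES cells pass through on leaving naive pluripotency, were also on the higher side with 1 large exception. Of 17 genes 5 were higher (29.4%, against 1.54% of all genes), or 2 with a pseudocount of 5 FPKM. Only 1 was lower (5.88%, against 4.5%), and the median was 0.58. Otx2, the factor of the post-implantation epiblast, was at 29.3, 30.0, 24.0 and 81.0 FPKM, Zic2 at 5.05, 11.8, 26.1 and 78.8 and Foxd3 at 10.8, 10.8, 9.63 and 23.3. Fgf5, the classic marker of that state, was near 0 before differentiation and at 16.6 and 23.3 FPKM after it. The DNA methyltransferases separated from their cofactor. Dnmt3a was at 16.6 and 35.3 FPKM and Dnmt3b at 149 and 250 in the differentiated pair, whereas Dnmt3l, the catalytically inactive partner that guides them, was at 172, 61.0, 132 and 28.8 in the 4 libraries. Dnmt3l was past 2-fold in both pairs (-2.16 and -1.48). The extent of differentiation and the knockdown cannot be told apart in 1 library per group, since the pluripotency, streak and keratin lists all differ between the same 2 cultures.

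**Figure D3:**
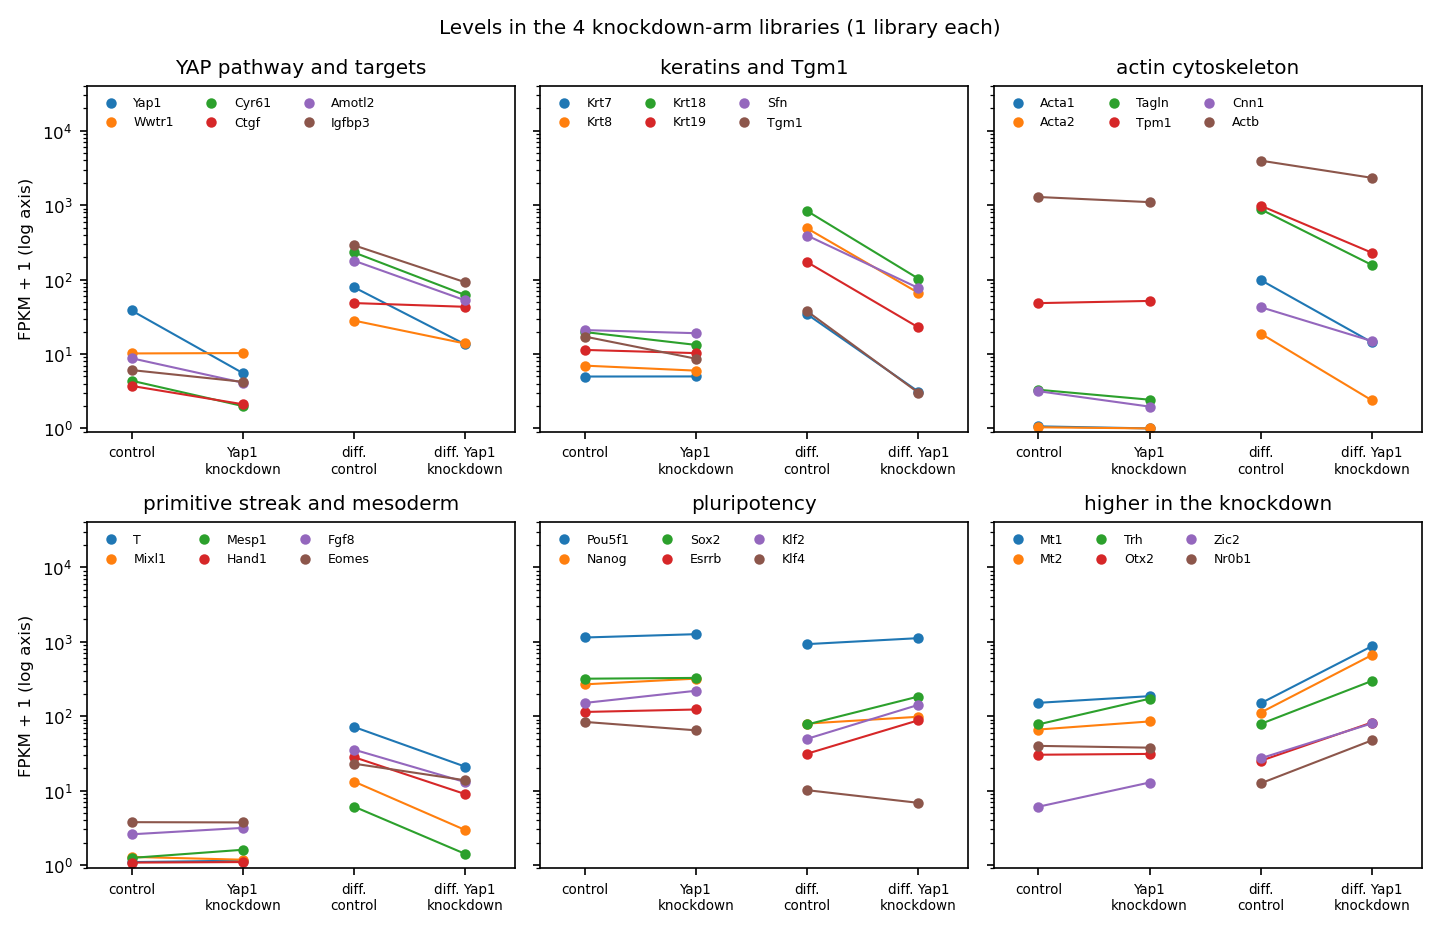
FPKM + 1 (log axis) of 36 genes in the undifferentiated control, undifferentiated Yap1 knockdown, differentiated control and differentiated Yap1 knockdown, with 1 library each and lines joining each control to its knockdown. In the panels of keratins, actin and streak genes every differentiated knockdown value is below the differentiated control, and Krt7 (2.12 FPKM) and Tgm1 (2.02 FPKM) are below both undifferentiated libraries as well.

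The highest ratios belonged to few genes. After Rnaset2b, a lysosomal ribonuclease gene at 0.149, 1.79, 0.123 and 8.94 FPKM that has a near-identical neighbouring copy and is therefore uncertain, came the metallothioneins Mt2 and Mt1, small zinc- and copper-binding proteins. Mt2 was at 65.0, 83.8, 110 and 659 FPKM and Mt1 at 150, 184, 148 and 868, which makes them 5.97-fold and 5.88-fold higher in the differentiated knockdown. In undifferentiated cells their log2 ratios were 0.36 and 0.30. Slc30a1, the zinc exporter that responds to zinc as they do, was at 4.35 and 8.62 FPKM (0.85). The iron storage chains Fth1 (565 and 785 FPKM) and Ftl1 (1285 and 1869) and the transferrin receptor Tfrc (31.3 and 49.3) were within 2-fold, and Hmox1, the haem-degrading enzyme, was on the lower side at 76.9 and 59.3. Of 11 genes of this list 2 were higher and 0 lower, with a median of 0.61.

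The other genes among the 20 highest ratios at 5 FPKM or more included Trh, the precursor of thyrotropin-releasing hormone, at 76.4, 170, 77.5 and 296 FPKM. Cbr3, a carbonyl reductase, was at 25.5, 29.1, 34.1 and 150 FPKM, and Chchd10, a mitochondrial cristae protein, at 551, 591, 150 and 523. Ripply1, a corepressor of somite formation, was at 3.73, 7.06, 0.929 and 8.92 FPKM, and Myb, a transcription factor of progenitor cells, at 2.17, 2.40, 1.36 and 8.24. Of these 20 genes 16 had a differentiated control level below the undifferentiated control, and 8 were still below it in the differentiated knockdown. In undifferentiated cells 17 of the 20 lay within 2-fold, where 0.247% of all genes were lower and 0.204% higher. Their log2 ratios ran from 1.70 to 3.15.

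The 20 lowest ratios at 5 FPKM or more ran from -2.82 to -4.03. H19, a noncoding RNA imprinted together with Igf2, had the lowest, at 3.39, 1.75, 50.5 and 2.16 FPKM. Igf2, the fetal growth factor, was at 0.273, 0.239, 36.3 and 4.27 FPKM. Anxa2, a membrane-binding annexin, was at 38.5, 39.6, 189 and 20.8, and Cryab, a small heat shock protein of muscle and lens, at 1.94, 2.10, 42.0 and 3.65. Edn1, the vasoactive peptide endothelin-1 and a known YAP target, was at 0.0980, 0.0243, 18.97 and 1.801 FPKM. Of the 20 genes 13 were under 5 FPKM in both undifferentiated libraries, and 12 remained higher in the differentiated knockdown than in the undifferentiated control. In the undifferentiated pair 18 of them lay within 2-fold, where 0.247% of all genes were lower and 0.204% higher. The 20 also include Krt7, Krt8, Krt18, Krt19, Tgm1, Wnt6, Wnt7b, Acta2 and Anxa1, described above.

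The same pattern held for the whole set of lower genes, as far as medians show it. The median FPKM of the 529 was 2.64, 2.23, 13.4 and 3.64 in the 4 libraries. For the 181 higher genes it was 8.58, 11.4, 3.27 and 8.94. Genes under 1 FPKM in both undifferentiated libraries made up 161 of the 529 lower genes (30.4%), 17 of the 181 higher genes (9.39%) and 833 of all 11751 (7.09%). The choice of genes by the ratio of the differentiated libraries favours a high control among the lower genes and a low control among the higher ones, so these medians are a description.

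Imprinted genes, expressed from 1 parental copy, held some of the largest single differences. Of 20 measured genes 5 were lower and 0 higher, with a median of -0.33, and 3 were lower with upper quartile scaling or a pseudocount of 5 FPKM. Beside H19 and Igf2 these were Peg3 (2.93, 3.24, 58.3 and 13.5 FPKM), Peg10 (28.2, 9.14, 429 and 213) and Plagl1, a zinc-finger gene at 2.89 and 0.944 in the differentiated pair. Peg10 and Plagl1, both barely past 2-fold, are the 2 that fell short of 2-fold in both of these settings. Grb10, an adaptor that restrains growth, was past 2-fold in undifferentiated cells (-1.44) and at -0.84 in differentiated cells. Snrpn (146 and 157 FPKM) and Igf2r (19.15 and 19.3), which lie in other clusters, were close to the control.

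The cell cycle list showed no member past 2-fold. Of 32 genes 0 were lower and 0 higher, and the median was 0.06. Ccnb1, the mitotic cyclin, was at 29.6 and 31.0 FPKM, Pcna, the replication clamp, at 172 and 191, and Ccnd1, often named as a YAP target, at 87.9 and 83.6. Mki67 was at 27.7 and 17.1 and E2f1 at 14.6 and 27.0, both within 2-fold. The 15 measured replication-dependent histone genes all lay above 0, with a median of 0.40 and a highest ratio of 0.83. Their main transcripts carry no poly(A) tail and the gene copies are nearly alike, so these values are uncertain.

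Lists of cell death and p53 genes had medians near that of all genes (-0.01). Of 10 anti-apoptotic genes 0 passed 2-fold in either direction, with a median of -0.14. Bcl2l1 was at 41.8 and 27.9 FPKM, Mcl1 at 104 and 103 and Birc5, a survival factor also tied to YAP, at 149 and 131. Of 23 pro-apoptotic and death receptor genes 2 were lower (8.70%, against 4.5% of all genes, and 1 gene with a pseudocount of 5 FPKM) and 0 higher, with a median of -0.06. The lower genes were Tnfrsf12a, the TWEAK receptor, at 19.6, 10.7, 141 and 31.1 FPKM and Bik at 12.4 and 5.23 in the differentiated pair. Of 25 p53 targets 3 were lower (12%), with a median of -0.06, among them Perp, which is also a desmosome component, and the CDK inhibitor Cdkn1a was at 68.7 and 56.1 FPKM.

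Stress and signalling responses differed from one another. Of 19 immediate-early and heat shock genes 6 were lower and 0 higher, with a median of -0.80. Ier3 was at 22.4 and 3.63 FPKM, the AP-1 subunits Junb at 77.7 and 34.9 and Fosl2 at 7.68 and 2.62, and Atf3 at 19.3 and 8.18. AP-1 factors are known to share enhancers with TEAD. Of 18 genes of the integrated stress and unfolded protein response 0 were lower and 0 higher, with a median of 0.16. Of 19 interferon and antigen presentation genes 4 were lower (2 with a pseudocount of 5 FPKM) and 0 higher, with a median of -0.61, and H2-K1, a class I MHC heavy chain, was at 82.9 and 39.6 FPKM. Of 22 glycolysis and hypoxia genes 1 was lower (4.55%, against 4.5% of all genes) and 1 higher (4.55%, against 1.54%), with a median of 0.26. With upper quartile scaling 2 were higher. The glucose transporter Slc2a3 was at 578 and 229 FPKM, while the mitophagy receptor Bnip3 was at 55.1, 51.9, 2.42 and 6.58 in the 4 libraries. Of 18 cholesterol synthesis genes 0 passed 2-fold, with a median of -0.25.

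The knockdown in undifferentiated cells shares no library with the differentiated pair, so the gene sets can be set against each other. Of the 10918 genes measured in both pairs, 368 were lower in the differentiated pair and 27 in the undifferentiated pair, and 16 were lower in both. That is 4.35% of the first list, where 0.247% of all genes were lower in the undifferentiated pair. It is 59.3% of the second list, where 3.37% of all genes were lower in the differentiated pair. Beside Yap1, Cyr61, Amotl2, Wwc2, Myl9, Dnmt3l, Id2, Peg10 and the homeobox gene Esx1, the 16 include Capn2, a calcium-dependent protease at 5.23, 1.61, 72.4 and 15.1 FPKM, and D630045M09Rik at 13.3, 1.85, 6.95 and 0.973. AF357399, with its entries at 0, is counted among the 16 and among the 71 genes below. Of the higher genes 9 were shared, 5.49% of the 164 in the differentiated and 64.3% of the 14 in the undifferentiated pair. Among all genes 0.128% were higher in the undifferentiated and 1.502% in the differentiated pair. The 9 shared genes include Trh, Zic2, Vax2, Stmn3, a tubulin-binding protein at 7.81, 17.4, 6.49 and 20.7 FPKM, and Fam25c at 55.5, 147, 3.66 and 11.2. Vax2os, also among them, is antisense to Vax2, and without stated strandedness reads of the 2 genes cannot be told apart. No gene was lower in the differentiated and higher in the undifferentiated pair, and 2 genes were the reverse. Across 8417 genes with a mean FPKM of at least 5 the log2 ratios of the pairs had a Pearson r of 0.31 and a Spearman rho of 0.28. Genes are not independent replicates, and this is a description of 4 libraries.

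The overexpression library and BirA share no library with the differentiated pair either. Overexpression gave 159 higher (1.38%) and 246 lower (2.14%) of 11514 genes. Among 11036 genes measured in both, 71 were lower in the differentiated knockdown and higher under overexpression. That is 16.9% of the 419 lower genes, where 1.40% of all genes were higher under overexpression. It is 45.8% of the 155 overexpression genes, where 3.80% of all genes were lower in the knockdown. Beside Yap1, the manipulated gene itself, the 71 include Krt7, Krt8, Krt18, Acta1, Acta2, Tagln, Tpm1, Thbs1, Cyr61, Amotl2, Igf2 and H19. Thbs1 was at 0.413 FPKM in BirA and 7.50 under overexpression, and Tagln at 4.01 and 66.3. Both stayed far below their level in the differentiated control. Cited2, a transcriptional cofactor, was at 26.2 and 58.6 FPKM in that pair and at 173 and 51.0 in the differentiated pair, and Lrp2, the endocytic receptor megalin, at 0.951 and 3.42 and at 30.6 and 8.71. In the other direction 28 genes were higher in the knockdown and lower under overexpression, 16.8% of 167 and 16.1% of 174. Among all genes 1.58% were lower under overexpression and 1.51% higher in the knockdown. The overexpression pair also differed in glycolysis and hypoxia genes. All 24 measured there lay below 0, 10 were lower (41.7%, against 2.14% of all genes) and the median was -0.91. In the differentiated pair the median of that list was 0.26, with 1 gene higher, Bnip3, which is among the 28. What made this difference in the overexpression pair was not tested.

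Some genes were on the same side in both perturbations. Lower in the differentiated knockdown and lower under overexpression were 12 genes, among them Ier3, Tgm2, Tgfb1 and Cd74, which is 2.86% of 419 and 6.90% of 174, where 1.58% of all genes were lower under overexpression and 3.80% in the knockdown. Higher in both were 4 genes, 2.40% of 167 and 2.58% of 155, against 1.40% and 1.51% of all genes. On opposite sides there were 71 and 28. Ptch1, the Hedgehog receptor, was at 27.8 FPKM in BirA, 67.2 under overexpression, 7.42 in the control after differentiation and 23.8 in the knockdown, and Enpp2 and Cabp7 were also among them. Across 8305 genes the log2 ratios of the 2 pairs had a Pearson r of -0.30 and a Spearman rho of -0.19. Trends with GC content and transcript length were not removed for this correlation or for that with the undifferentiated knockdown, and their part in them was not tested. The metallothioneins were level in that pair, Mt2 being at 138 FPKM in BirA and 139 under overexpression.

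**Figure D4:**
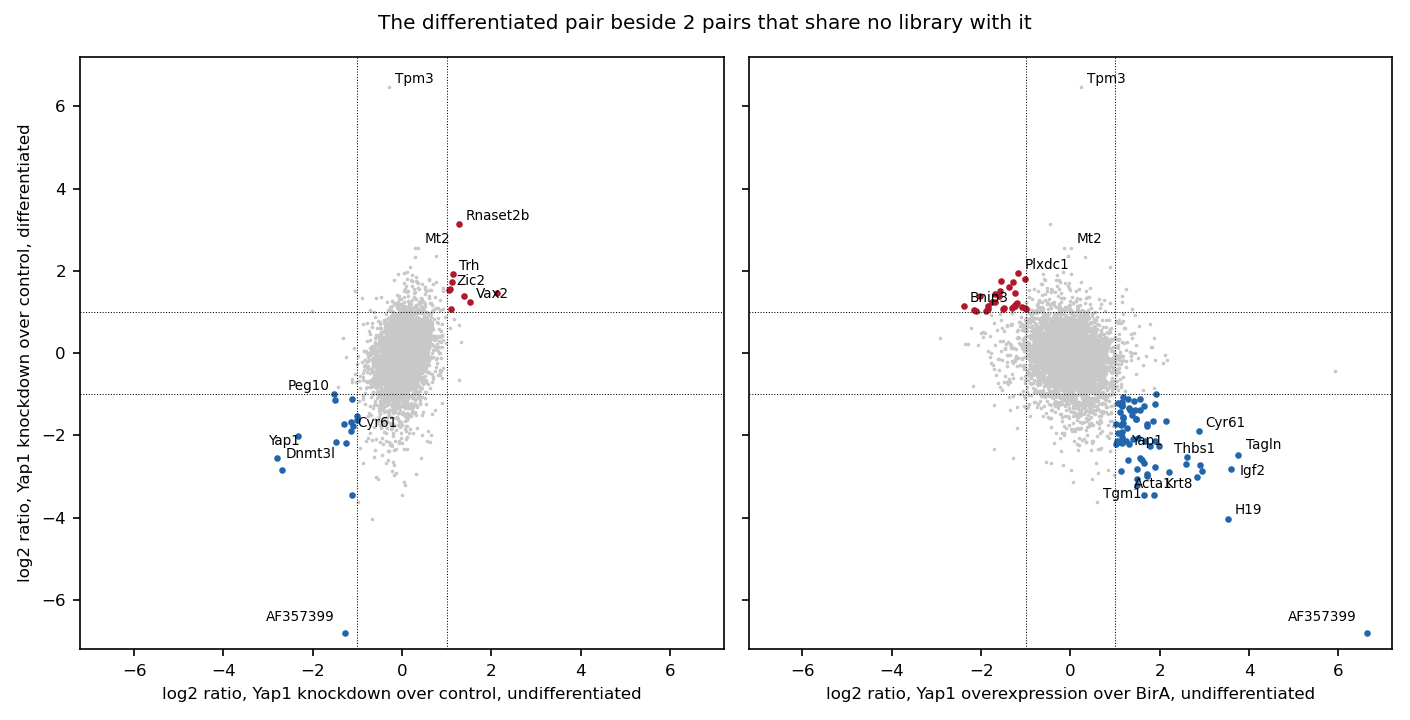
Log2 ratio of (FPKM + 1) in the differentiated pair (y axis, knockdown over control) against the undifferentiated knockdown pair (left, x axis) and the overexpression pair (right, x axis, overexpression over BirA), 1 point per gene measured in both, with dotted lines at 2-fold. Blue points are lower in the differentiated knockdown and, on the left, lower in the undifferentiated knockdown (16 genes) or, on the right, higher under overexpression (71 genes), and red points are the 9 and 28 genes with the mirrored pattern.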

How the data were processed

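Polyadenylated RNA of 9 libraries was sequenced, and the authors deposited 1 table of FPKM values per gene. Alignment with TopHat2, quantification with Cuffdiff and the genome build mm9 are given per the submitters' processing notes; the version of each tool, the annotation, the strand setting and the length of reads are not stated in what was at hand. The header names no unit, and FPKM was taken from Cuffdiff's usual output and from steps between low values that depend on the gene. Cuffdiff estimates levels by likelihood and scales libraries, so a 0 can be a failed estimate. Of 23277 rows, 4746 without a name and 27 with date-like symbols were left out, as were 168 small RNA rows (symbols starting Mir, Snor, Rnu or Scarna), which held 19.9% and 19.7% of the summed FPKM in the differentiated control and knockdown. Columns were matched to samples by title.

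Log2 ratios used a pseudocount of 1 FPKM and genes at 1 FPKM or more in either library (Python 3.11.15, pandas 2.3.3, numpy 2.4.6, scipy 1.17.1; figures with matplotlib 3.10.9). The calculation was tested on simulated data with large changes of known size. That checks the counting itself and not how reliable the counts are in these libraries. Depth came from the most common ratio of low values between libraries, shared by 9.46% of 3636 low genes for the differentiated knockdown, scaled over 187 low genes by transcript length. Its quartiles for the differentiated control were 13.0 to 19.5 M, so it is approximate and limits precision for low genes. The members and the 38 gene lists were chosen with earlier results of these data known, and of 785 list symbols 768 were in the table, 3 of them by synonym. Named genes are Yap1 and Wwtr1, list members, and the 20 highest and 20 lowest log2 ratios at 5 FPKM or more without genes listed at 0 in any library while at 50 FPKM or more in another. Tpm3, Serbp1, AF357399, D630045M09Rik, Capn2, Stmn3, Fam25c, Vax2os, Cited2, Lrp2, Ptch1, Enpp2, Cabp7, Tgfb1, Cd74, Gm12669 and Rims4 were chosen after their values were seen. Some genes counted here are not reported by name. Promoters are RefSeq windows on GRCm38.p6, another build than the table's, matched by symbol. Alternatives were other pseudocounts, filters and scalings, small RNA kept, genes listed at 0 left out and a GC trend removed.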

Additional observations from a re-analysis of the deposited data

Results flagged for a closer look

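Gm12669 and Rims4 lay past 2-fold on opposite sides in the differentiated and undifferentiated pairs. Before differentiation Gm12669 was at 7.54 FPKM in the control and 1.10 in the knockdown, and after it at 0.00450 and 1.05, which gives log2 ratios of -2.02 before and 1.03 after differentiation. Rims4, a synaptic active zone protein, was at 2.82, 0.833, 2.18 and 7.99 FPKM in the same order, with log2 ratios of -1.06 and 1.50. The difference was not tested, since each group has 1 library. Gm12669 varied between the undifferentiated controls as well, at 7.83 FPKM in BirA and 0.00539 in the ES cell control of the knockout samples.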

How the results depend on the processing

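The count of genes past 2-fold depended on the pseudocount. In differentiated cells 822 genes were lower and 344 higher with a pseudocount of 0.1 FPKM, and 224 and 45 with 5 FPKM. In undifferentiated cells the counts were 77 lower and 96 higher with 0.1 FPKM, which turned the larger side, and 9 and 6 with 5 FPKM. Undifferentiated counts were also 19 lower with a filter at 5 FPKM, and 60 lower and 60 higher with small RNA genes kept. In the differentiated pair the other settings (no filter, a filter at 5 FPKM, median ratio scaling, upper quartile scaling, small RNA kept, genes listed at 0 left out, and a GC trend removed, the last chosen after seeing the data) gave 406 to 565 lower and 125 to 203 higher genes. Under them the lower share of called genes was 70.9% to 76.5%. Of the 20 leading higher genes 8 were below the undifferentiated control in the differentiated knockdown, and 5 were below all 3 undifferentiated controls. Of 646 named genes measured, 77 lost their 2-fold call with a pseudocount of 5 FPKM, 10 with the GC trend removed, 9 with upper quartile scaling and 1 with median ratio scaling, and no called gene changed sign in any setting. Of 76 counts over lists, 24 moved by more than 1.5 times with a pseudocount of 5 FPKM and 15 with 0.1 FPKM, against 4 or fewer in each other setting; the cause was not tested. No paired analysis was possible because each group has 1 library. Depth limits genes near 1 FPKM, where about 26.1 fragments stood behind a 2 kb transcript in the knockdown library.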

Other observations

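Germline genes, many of them silenced by DNA methylation in somatic cells, lay on both sides of the differentiated control. Of 16 measured genes 10 lay above 0 and 6 below, 1 was at least 2-fold higher (6.25%, against 1.54% of all genes), 0 were lower and the median log2 ratio was 0.21. Sycp3, a part of the synaptonemal complex, was the higher gene, at 14.1, 13.6, 7.87 and 19.2 FPKM in the undifferentiated control, the undifferentiated knockdown and the differentiated control and knockdown. Tex19.1, which restrains retrotransposons, was at 55.7, 53.6, 13.4 and 26.9 FPKM in the same order, and Dazl, an RNA-binding protein of germ cells, at 4.85, 9.16, 0.718 and 1.87. Ddx4, the marker of later germ cells, was at 10.6 and 8.48 FPKM in the differentiated pair.

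Genes of the retinoic acid response and the Hox clusters were mostly silent. Of 27 listed genes 6 passed 1 FPKM, and 0 of these were past 2-fold. Cyp26a1, which degrades retinoic acid, was at 2.50 and 0.860 FPKM in the differentiated pair. The carrier Crabp1 was at 105 and 123 FPKM before and 16.4 and 13.8 after differentiation.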
